A study of Mus musculus with 158 samples.

Results

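Pool 10 is 1 of 19 pools of short hairpin RNAs (shRNAs) that were screened in PDA530 Met, a mouse pancreatic adenocarcinoma line from a liver metastasis. Its members were taken by the pool named in the deposited tables, which gave 51 hairpins against 21 genes, out of 1000 targeting hairpins against 285 genes in the series. They were followed in 11 libraries of 4 arms: 3 of cells at day 0 (A, B and C), 3 of cultures named for pools 9 and 10 together (culture 9/10), 3 of cultures named for pools 10 and 11 together (culture 10/11), and 2 of lung tumours (A and B). The third lung library, C, was left out because only 0.0344% of its reads came from pool 10, against 99.2% from the control hairpins.

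All arms shared the same handling up to day 0. Virus of each pool was used at a multiplicity of infection of 0.3, and infected cells were selected with puromycin at 3 µg/ml for 4 days. The day 0 libraries came from pelleted cells, the cultures were kept for 28 days in triplicate, and the lungs were taken 28 days after tail-vein injection. In each mouse all lung tumours were combined into 1 DNA sample, so a lung library gives a sum over tumours and not the make-up of any of them. Tail-vein injection seeds the lungs directly from the blood, so the earlier steps of spread from a primary tumour are not part of this model. The labels give no strain, sex or age of the mice. The labels do not say whether the paired pools were grown together or combined later, and the labels of culture 9/10 give pool 9 in their pool field.

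An shRNA is transcribed from an integrated provirus, is cut to a small interfering RNA and directs the degradation of messenger RNAs with a matching site. Because the provirus stays in the genome, the hairpin acts as a barcode: its share among all hairpins in genomic DNA tracks the share of cells that carry it. A hairpin whose share falls marks cells that came to make up less of the sample, and one whose share rises marks cells that came to make up more. Growth, seeding of the lungs and sampling of few cells were not told apart. Hairpins against 1 gene can differ in how well they silence it and in which other transcripts they hit, so they are separate reagents and not replicates. Hairpins of a gene are therefore described one by one here. The files hold no transcript or protein levels, so knockdown itself was not checked, nor was the identity of the cells in the tumours.

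Values below are shares, the percent of the pool 10 reads of a library that belong to a hairpin. Pool 10 gave between 4173235 and 4913197 reads per library at day 0, between 1619147 and 1982809 in culture 9/10, between 1338853 and 2099540 in culture 10/11, and 3967312 and 4739030 in the lungs. All 51 hairpins were found in all 11 libraries and passed the filter of a mean of 10 reads in every comparison. Day 0 libraries were nearly alike, with Pearson r of log2 values across hairpins between 0.994 and 0.998. Cultures of 1 mixture correlated at 0.942 to 0.975, the pair of lungs at 0.937, and cultures of different mixtures at 0.934 to 0.964. Reads were amplified by PCR without molecular identifiers, so the spread between libraries and not the read count sets the error. The labels call the cultures triplicates and give 3 mice per pool. They do not say whether the day 0 pellets were separate cell samples, so the spread at day 0 may be technical.

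Changes are given as log2 fold changes of the share with their standard error, on the scale log2(CPM + 1), where CPM is the share multiplied by a constant. They were tested with limma, with a Benjamini-Hochberg adjustment of p that spans the hairpins of all pools tested in that comparison. A hairpin was called at an adjusted p under 0.05. Where a call was lost or gained under another scaling or without a library, the value in parentheses there is the limma adjusted p of that fit, after the log2 change where one is given. A share can fall because others rise, so each count was also made after trimmed-mean (TMM) scaling, which centres the changes on the bulk of the hairpins. TMM moved the median change of pool 10 by 0.66 in culture 9/10, by 0.60 in culture 10/11 and by 0.60 in the lungs. Background percentages over the pools are given for shares of the pool only, so counts under TMM have no matching background here.

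At day 0 the pool was uneven. Mrps7 hairpin TRCN0000104172, against a protein of the small subunit of the mitochondrial ribosome, was the most abundant with 8.25, 7.55 and 7.37% of reads. Gpr133 TRCN0000175083 followed with 5.36, 5.44 and 5.41%, Negr1 TRCN0000113666 with 4.91, 4.88 and 4.91% and Rbms1 TRCN0000096781 with 5.31, 4.64 and 4.67%. The second Mrps7 hairpin, TRCN0000104170, had 4.65, 4.75 and 4.91% and Celsr2 TRCN0000094561 had 4.70, 4.60 and 4.50%. The rarest were Krtap5-4 TRCN0000098413, with 0.00915, 0.0141 and 0.0115%, and Zscan20 TRCN0000084642, with 0.0167, 0.0169 and 0.0163%. The effective number of hairpins, the exponential of the Shannon entropy of the shares, was 34.3 ± 0.820 (SD, n = 3) at day 0. It was 24.4 ± 1.48 (SD, n = 3) in culture 9/10, 25.7 ± 0.392 (SD, n = 3) in culture 10/11 and 24.6 ± 0.968 (SD, n = 2) in the lungs. Every later library lay below every day 0 library. The two-sided exact permutation p was 0.1 for each arm against day 0, the smallest these designs can give, and 0.167 after adjustment over 5 comparisons. The difference between the mixtures (p = 0.3 by the same exact test) and between the lungs and culture 9/10 (p = 0.8) was within the spread.

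The first comparison asked which hairpins were lost or gained over 28 days in dishes. In culture 9/10 a Gosr2 hairpin rose 9.34-fold in mean share and a Gpr133 hairpin 2.71-fold, and hairpins against Whsc2, Ruvbl1, Rbms1, Arntl2 and Wdr3 fell to a small fraction of their starting share. Of the 51 hairpins 35 were called, 6 higher and 29 lower. Over the 945 hairpins of the 18 pools tested the same rule called 65.7% in either direction, 17.1% higher and 48.6% lower. Only pools 9 and 10 were tested in culture 9/10, and the other pools in their own day 0 and culture libraries. The share called in pool 10 was close to this background. The median change was -0.94 in pool 10 and -0.66 over the pools tested. TMM scaling called 29 hairpins, 11 higher and 18 lower, and 24 of the 35 kept their call. With each library left out in turn, 28 of the 35 kept their call every time. On the deposited scale, where the median of pool 10 was lower by 0.63, the split was 3 higher and 37 lower.

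In culture 10/11 the same Gosr2 hairpin rose, together with a Fermt1 and a Negr1 hairpin, and the Ruvbl1 hairpin and 1 Whsc2 hairpin fell most. Of the 51 hairpins 37 were called, 10 higher and 27 lower. The background over 945 hairpins was 65.5% in either direction, 17.5% higher and 48% lower. The median change was -0.60 in pool 10 and -0.64 over all pools. TMM scaling called 33, 18 higher and 15 lower, and 25 of the 37 kept their call. Leaving out each library in turn kept 30 of them every time. The deposited values of these libraries run on another scale, where the median of pool 10 was lower by 1.63. On it 1 hairpin was called higher and 46 lower, and 8 of the 10 hairpins called higher had a negative change. The other two were Gosr2 TRCN0000115092 and Fermt1 TRCN0000173840. Both cultures were set against the same day 0 libraries, so their values are given side by side and do not count as independent of each other. The culture 10/11 libraries were sequenced in another lane than all the other libraries used here.

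The second comparison asked which hairpins were lost or gained in lung tumours. All 4 Whsc2 hairpins and both hairpins of Arntl2 and of Krtap5-4 fell. In mean share 1 Gosr2 hairpin fell 16.4-fold and 1 Slco1c1 hairpin 15.3-fold. A hairpin each against Rbms1, Dusp5 and Sfn rose by more than 1 on the log2 scale. Of the 51 hairpins 32 were called, 7 higher and 25 lower. Over 891 hairpins of the 17 pools tested the background was 42% in either direction, 10.4% higher and 31.5% lower. The other pools were tested in their own libraries, and none of their lung libraries was left out. Among these, lung D of pool 16 held only 0.677% pool 16 reads, so pool 10 and the background were not filtered alike. The median change was -0.86 in pool 10 and -0.68 over the pools tested. TMM scaling called 29, 14 higher and 15 lower, and 22 of the 32 kept their call, while 23 kept it with every library left out in turn. When a lung library is left out, the remaining one is assumed to vary like the others. With lung library C added, 7 hairpins were called and all 7 were lower.

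The hairpins were also counted by what their genes do, a grouping made after the values were seen, and differences between the groups were not tested. The backgrounds given above were 48.6% of hairpins called lower beside culture 9/10, 48% beside culture 10/11 and 31.5% beside the lungs. The percentages called higher were 17.1, 17.5 and 10.4. They hold for shares of the pool and not for TMM, and the other pools were tested in their own libraries. Of the 11 hairpins of the 5 genes of transcription and chromatin, 8 were lower in culture 9/10, 7 in culture 10/11 and 8 in the lungs, and none was called higher, whereas under TMM 1 was higher and 6 lower in culture 9/10, 4 and 4 in culture 10/11, and none and 4 in the lungs. Of the 12 hairpins of the 5 RNA and ribosome genes, 1 was higher and 6 lower in culture 9/10, 2 and 7 in culture 10/11, and 2 and 4 in the lungs. Under TMM these became 2 higher and 3 lower, 4 and 5, and 4 and 3. Of the 13 hairpins of the 4 surface and adhesion genes, 3 were higher and 7 lower in culture 9/10, 4 and 5 in culture 10/11, and 2 and 6 in the lungs. TMM gave 4 higher and 4 lower, 6 and 3, and 5 and 2 in the same order. Of the 5 hairpins of the channel and transporter genes, none was higher and 4 lower in culture 9/10, 1 and 4 in culture 10/11, and 1 and 3 in the lungs, while TMM gave 1 higher and 3 lower, 1 and 2, and 2 and 3. Of the 7 hairpins of the traffic, cytoskeleton and keratin genes, 2 were higher and 3 lower in culture 9/10, 2 and 2 in culture 10/11, and none was higher and 4 lower in the lungs, against 2 and 2, 2 and 1, and none and 3 under TMM. Of the 3 hairpins of the signalling and cell cycle genes, 1 was lower in culture 9/10, 1 was higher and 2 lower in culture 10/11, and 2 were higher in the lungs. Under TMM no hairpin of this group was called lower, and 1, 1 and 3 were called higher. The median log2 changes in culture 9/10, culture 10/11 and the lungs were -1.57, -1.34 and -1.86 for transcription and chromatin, and -0.91, -0.75 and -1.26 under TMM. For the channels and transporters they were -1.39, -1.37 and -1.92, and -0.73, -0.78 and -1.32 under TMM. For the RNA and ribosome genes they were -0.54, -0.68 and -0.46, and 0.11, -0.08 and 0.14 under TMM. For the surface and adhesion genes they were -0.79, -0.39 and -0.86, and -0.13, 0.21 and -0.26 under TMM. For traffic, cytoskeleton and keratin they were -0.46, -0.45 and -1.16, and 0.20, 0.15 and -0.56 under TMM. For the 3 hairpins of signalling and cell cycle they were -0.14, -0.49 and 1.03, and 0.51, 0.11 and 1.63 under TMM. The lists drawn up for the whole screen held few of these genes: 4 of the 8 lists had a pool 10 gene, and the other 4 had none. They placed Dusp5 with signalling, Sfn with cell cycle inhibitors, Slco1c1 and Nalcn with channels and transporters, and Arntl2 with transcription.

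Whsc2, now named Nelfa, encodes a subunit of the negative elongation factor that holds RNA polymerase II near promoters, and all 4 of its hairpins were in pool 10. Hairpin TRCN0000124874 made up 1.30, 1.39 and 1.41% at day 0, 0.0401, 0.306 and 0.0142% in culture 9/10, 0.0563, 0.114 and 0.0849% in culture 10/11 and 0.442 and 0.210% in the lungs. Every later library was below every day 0 library, with the lungs above most of the cultures. The change was -4.61 ± 1.00 in culture 9/10 (limma adjusted p = 0.00477), -4.06 ± 0.32 in culture 10/11 (adjusted p = 1.45e-06) and -2.16 ± 0.32 in the lungs (adjusted p = 0.00424). Without culture 9/10 A the first of these missed the threshold, at -4.37 with an adjusted p of 0.0604. Hairpin TRCN0000124875 made up 1.64, 1.53 and 1.52% at day 0, 0.720, 0.650 and 1.16% in culture 9/10, 0.795, 0.589 and 0.502% in culture 10/11 and 0.229 and 0.198% in the lungs. It was lower in each arm and lowest in the lungs, with changes of -0.94 ± 0.25, -1.34 ± 0.17 and -2.88 ± 0.15 (limma adjusted p = 0.0101, 4.67e-05 and 0.000166), of which the first was lost under TMM (0.276). Hairpin TRCN0000124876 stayed near its starting share in dishes and fell in the lungs, from 1.67, 1.65 and 1.43% at day 0 to 0.292 and 0.698%. Its cultures read 1.67, 1.47 and 1.66% and 1.55, 1.77 and 1.37% and overlapped with day 0, although under TMM both were called higher (0.67, 0.0086 and 0.57, 0.0165). The lung change was -1.81 ± 0.38 (limma adjusted p = 0.014), which missed the threshold without day 0 A (0.0759), without day 0 B (0.0723) and under TMM (0.0695), and was -1.18 without lungs A. Hairpin TRCN0000124877 went from 0.959, 1.09 and 1.07% to 0.595 and 0.537% in the lungs, a change of -0.88 ± 0.17 (limma adjusted p = 0.00947) that TMM reduced to -0.28 (0.193). In culture 9/10 it changed by -1.01 ± 0.28, a call lost without day 0 B (0.0507) and under TMM (0.22), and in culture 10/11 TMM called it higher (0.49, 0.00462).

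Arntl2 is a transcription factor of the circadian clock family that pairs with CLOCK. Both of its pool 10 hairpins were rare. Hairpin TRCN0000095703 made up 0.0609, 0.0587 and 0.0701% at day 0, 0.00306, 0.00445 and 0.0132% in culture 9/10, 0.0124, 0.00762 and 0.00158% in culture 10/11 and 0.000844 and 0.0000756% in the lungs. The lung values stand for 40 and 3 reads, and no lung value reached the lowest culture value. Its change was -3.46 ± 0.54 in culture 9/10, -3.53 ± 0.72 in culture 10/11 and -7.28 ± 0.76 in the lungs (limma adjusted p = 0.000553, 0.00155 and 0.00122). The lung change was -6.06 without lungs B and -8.49 without lungs A. Hairpin TRCN0000095702 made up 0.0565, 0.0568 and 0.0595% at day 0, 0.0139, 0.0111 and 0.0217% in culture 9/10, 0.0217, 0.0111 and 0.0213% in culture 10/11 and 0.0271 and 0.00925% in the lungs, with no overlap between day 0 and later libraries. Its changes were -1.94 ± 0.37, -1.73 ± 0.48 and -1.86 ± 0.51 (limma adjusted p = 0.00166, 0.00957 and 0.0324). The lung call was lost without any 1 of day 0 A (0.115), B (0.111) or C (0.0882), and the change was -1.09 without lungs B. Under TMM the calls in culture 10/11 (0.0547) and the lungs (0.102) were lost. Pool 18 held another pair of Arntl2 hairpins, and there 1 was higher in culture (1.15 ± 0.33) and 1 lower (-1.90 ± 0.52), with no call in the lungs.

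Ruvbl1 is an ATPase of several chromatin-remodelling complexes and is needed for growth in most cell types. Its single pool 10 hairpin, TRCN0000115241, made up 0.506, 0.460 and 0.466% at day 0, 0.0138, 0.0737 and 0.0190% in culture 9/10, 0.00781, 0.0512 and 0.0493% in culture 10/11 and 0.00384 and 0.319% in the lungs. It was below day 0 in all 6 cultures, with changes of -4.14 ± 0.58 and -4.13 ± 0.69 (limma adjusted p = 0.00027 and 0.00045), while the lungs stood far apart and gave no call (-3.75 ± 2.02, adjusted p = 0.213). It was called lower in the lungs when either was left out, at -0.58 without lungs A (0.0198) and -6.92 without lungs B (4.77e-05). The Ruvbl1 hairpin of pool 18 rose in culture, by 1.11 ± 0.08, with no call in the lungs (0.06 ± 0.22).

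Zscan20 encodes a zinc finger protein. Hairpin TRCN0000084641 read 1.94, 2.08 and 1.91% at day 0 and 1.40, 1.26 and 1.26% in culture 10/11, a change of -0.60 ± 0.12 (limma adjusted p = 0.00111) that vanished under TMM (0.997), and it was called lower in culture 9/10 without library C (-0.87, 0.0155). The rare hairpin TRCN0000084642 read 0.0167, 0.0169 and 0.0163% at day 0, 0.00311, 0.00364 and 0.00560% in culture 9/10, 0.00343, 0.00418 and 0.0103% in culture 10/11 and 0.00658 and 0.00227% in the lungs, and was called lower in each. The call in culture 10/11 was lost without any 1 of the day 0 libraries (0.0887, 0.105 and 0.0963), without culture 10/11 A (0.0814) or B (0.106) and under TMM (0.127). The lung call was lost without any 1 of the day 0 libraries (0.104, 0.0972 and 0.0903) and under TMM (0.0843). Of the pair of Zscan20 hairpins in pool 18, TRCN0000414327 was higher (1.40 ± 0.28) and TRCN0000415744 lower (-3.14 ± 0.46) in culture, and neither was called in the lungs (0.55 ± 0.61 and 0.95 ± 0.45).

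Rbms1 encodes an RNA-binding protein that acts on messenger RNA stability, and its 3 hairpins, all in pool 10, did not move together. Hairpin TRCN0000096783 made up 0.916, 1.06 and 0.931% at day 0, 0.0448, 0.0491 and 0.0778% in culture 9/10, 0.179, 0.243 and 0.0618% in culture 10/11 and 0.192 and 0.199% in the lungs. It was lower in every later library, with changes of -4.12 ± 0.32, -2.79 ± 0.46 and -2.30 ± 0.15 (limma adjusted p = 6.15e-06, 0.000397 and 0.000276). Hairpin TRCN0000096780 went the other way in the lungs and made up 1.36, 1.29 and 1.18% at day 0, 1.20, 1.54 and 2.09% in culture 9/10, 1.65, 1.81 and 1.54% in culture 10/11 and 3.65 and 3.39% in the lungs. Both lungs were above every other library. The lung change was 1.46 ± 0.13 (limma adjusted p = 0.000837), and in culture 10/11 it was 0.38 ± 0.12 (adjusted p = 0.0179), a call lost without day 0 B (0.0666) or C (0.0818). Under TMM it was called higher in culture 9/10 too (0.96, 0.00492). Hairpin TRCN0000096781, abundant at the start, fell to 3.04, 1.86 and 2.90% and 1.95, 2.08 and 2.42% in the cultures (-0.94 ± 0.24 and -1.18 ± 0.12, limma adjusted p = 0.00753 and 1.02e-05), the first of which was lost under TMM (0.307). In the lungs it read 4.46 and 4.43%, and the change of -0.13 ± 0.09, without a call, turned to 0.47 and was called higher under TMM (0.0226).

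Rbm8a is a core protein of the exon junction complex, which marks spliced messenger RNAs. Its hairpin TRCN0000123573 made up 0.392, 0.440 and 0.465% at day 0, 0.0731, 0.210 and 0.0381% in culture 9/10, 0.211, 0.0946 and 0.0538% in culture 10/11 and 0.162 and 0.0847% in the lungs. All later libraries were below day 0, with changes of -2.36 ± 0.57, -2.07 ± 0.51 and -1.88 ± 0.31 (limma adjusted p = 0.00574, 0.00489 and 0.00586). In other pools, Rbm8a hairpin TRCN0000123572 was lower in culture (-1.86 ± 0.58) and in the lungs (-2.91 ± 0.52), whereas TRCN0000434151 was higher in the lungs (0.98 ± 0.29). The third, TRCN0000443180, was lower in the lungs (-2.76 ± 0.87) and had no call in culture (-1.67 ± 1.55), nor had TRCN0000434151 (0.0035 ± 0.17).

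The Mrps7 hairpin that led the pool at day 0 led it in 10 of the 11 libraries. It reached 10.4, 10.0 and 9.87% in culture 9/10, 11.9, 11.4 and 11.9% in culture 10/11 and 13.6 and 10.1% in the lungs, all above day 0. The changes were 0.39 ± 0.09, 0.60 ± 0.06 and 0.60 ± 0.14 (limma adjusted p = 0.0065, 5.18e-06 and 0.0199). Under TMM they were 1.04, 1.20 and 1.20, and all 3 were called (0.000447, 1.71e-05 and 0.00228). The call in culture 9/10 was lost without day 0 A (0.0736) or B (0.0611) and the change was -0.24 on the deposited scale. The lung call was lost without day 0 A (0.062), B (0.0898) or C (0.0561). The second Mrps7 hairpin, TRCN0000104170, read 8.88, 3.35 and 4.25% in culture 9/10, 3.54, 3.41 and 3.60% in culture 10/11 and 5.05 and 5.76% in the lungs. It was called lower in culture 10/11, where the change of -0.44 ± 0.08 (limma adjusted p = 0.000988) became 0.16 under TMM. In the lungs it was called higher under TMM (0.78, 0.00341) and without lungs A (0.27, 0.0147). The Mrps7 hairpin of pool 17 had no call in culture (-0.69 ± 0.36) or in the lungs (0.47 ± 0.53).

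Wdr3 and Wdr12 act in the making of the small and the large ribosomal subunit, and 3 hairpins against each were in pool 10. Of the Wdr3 hairpins, TRCN0000104037 made up 2.18, 1.98 and 1.96% at day 0, 0.0837, 0.429 and 0.654% in culture 9/10, 0.389, 0.432 and 0.392% in culture 10/11 and 0.572 and 0.147% in the lungs. Every later library was below day 0, with changes of -2.83 ± 0.70, -2.33 ± 0.12 and -2.81 ± 0.55 (limma adjusted p = 0.00896, 3.32e-08 and 0.0109). The culture 9/10 change ran from -3.43 to -1.94 with a library left out. The lung call was lost without day 0 A (0.0689) or B (0.0625), and the lung change was -1.83 without lungs B. Of the other two Wdr3 hairpins, TRCN0000104035 was called lower in culture 9/10 (-0.57 ± 0.21), which turned to 0.09 under TMM, and TRCN0000104039 had no call. TMM called both higher in culture 10/11 (0.50, 0.02 and 0.51, 0.0109), and without lungs A TRCN0000104035 was called lower in the lungs (-0.85, 0.0136). The call of TRCN0000104035 was also lost without any 1 of the day 0 libraries (0.0504, 0.12 and 0.137) or culture 9/10 B (0.0625). Wdr12 hairpin TRCN0000125626 read 4.61, 4.21 and 4.15% at day 0, 8.93, 1.96 and 1.98% in culture 9/10, 1.23, 0.882 and 1.26% in culture 10/11 and 2.09 and 3.05% in the lungs. Culture 9/10 A lay far above the other libraries of its arm, and the arm gave no call (-0.40 ± 0.57, limma adjusted p = 0.555). Without that library the change was -1.13 and was called (0.00029). The change was -1.96 ± 0.16 in culture 10/11 (limma adjusted p = 1.53e-06) and, in the lungs, -0.78 ± 0.18 (adjusted p = 0.019), the latter lost without day 0 A (0.0887) or B (0.0781) and at -0.18 under TMM. Wdr12 TRCN0000125625 was lower in culture 10/11 (-0.92 ± 0.13) and TRCN0000125628 in culture 9/10 (0.540, 0.634 and 1.15% against 1.55, 1.46 and 1.39% at day 0), and both calls were lost under TMM (0.102 and 0.276). The latter was also lost without day 0 A (0.0603) or culture 9/10 B (0.055). Without lungs A, TRCN0000125625 was called higher (0.34, 0.0438) and TRCN0000125628 lower (-0.77, 0.00543) in the lungs.

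Dusp5, the nuclear phosphatase that switches off ERK, had 1 hairpin in pool 10, TRCN0000080891. It made up 4.75, 4.58 and 4.32% at day 0, 3.75, 3.01 and 6.17% in culture 9/10, 2.22, 2.91 and 2.18% in culture 10/11 and 10.7 and 8.58% in the lungs. The lungs were above every other library, with a change of 1.07 ± 0.11 (limma adjusted p = 0.00128). Culture 10/11 was below day 0 (-0.91 ± 0.13, adjusted p = 0.000134), a change of -0.32 under TMM (0.129), and culture 9/10 overlapped with day 0. Pool 8 held the other Dusp5 hairpins: in the lungs TRCN0000080889 changed by 2.78 ± 0.44, TRCN0000080888 by 1.27 ± 0.28 and TRCN0000080890 by -2.88 ± 0.73, all 3 past the threshold. In culture they changed by 0.83 ± 0.15, 0.30 ± 0.18 and -2.42 ± 0.32, the second of which had no call.

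Sfn encodes 14-3-3 sigma, which holds cells before mitosis after DNA damage. Hairpin TRCN0000112151 made up 1.07, 1.19 and 1.32% at day 0, 0.871, 0.781 and 0.824% in culture 9/10, 0.851, 0.755 and 0.944% in culture 10/11 and 2.18 and 2.70% in the lungs. It was above all other libraries in the lungs and below day 0 in the cultures. The lung change was 1.03 ± 0.17 (limma adjusted p = 0.00593). The changes in culture, -0.53 ± 0.19 and -0.49 ± 0.14 (adjusted p = 0.0387 and 0.0089), turned to 0.13 and 0.11 under TMM, and the first was lost without day 0 B (0.146), day 0 C (0.136), culture 9/10 A (0.0591) or culture 9/10 B (0.0712). Hairpin TRCN0000112150 was called higher in culture 10/11, at 1.58, 2.94 and 2.22% against 1.01, 1.17 and 1.33% at day 0 (0.91 ± 0.21, limma adjusted p = 0.00369). Under TMM it was called higher in culture 9/10 (1.02, 0.00268) and in the lungs (0.93, 0.0206) too. Of the pair of Sfn hairpins in pool 18, TRCN0000436998 was higher in the lungs (1.35 ± 0.33) and TRCN0000437399 was not called (0.97 ± 0.62). Neither was called in culture (0.22 ± 0.25 and -0.55 ± 0.52).

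Nalcn is a sodium leak channel of the plasma membrane. Its hairpin TRCN0000173700 made up 3.62, 3.48 and 3.26% at day 0, 0.658, 1.40 and 0.689% in culture 9/10, 0.717, 0.802 and 0.914% in culture 10/11 and 5.08 and 5.04% in the lungs. The cultures fell to a fraction of day 0 (-2.004 ± 0.29 and -2.09 ± 0.13, limma adjusted p = 0.000364 and 2.19e-07), and the lungs rose above it (0.55 ± 0.09, adjusted p = 0.00592). Hairpin TRCN0000173744 was lower in all 3 arms and made up 1.62, 1.69 and 1.76% at day 0, 0.543, 0.641 and 1.08% in culture 9/10, 0.645, 0.638 and 0.672% in culture 10/11 and 0.389 and 0.509% in the lungs. Its changes were -1.22 ± 0.27, -1.37 ± 0.11 and -1.92 ± 0.20 (limma adjusted p = 0.00397, 1.9e-06 and 0.00115), the first lost under TMM (0.0657). In pool 18, Nalcn TRCN0000412654 was higher in culture (1.07 ± 0.16) and TRCN0000413315 higher in the lungs (1.14 ± 0.32), and each had no call in the other setting (0.31 ± 0.16 in the lungs and -0.10 ± 0.44 in culture).

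Slco1c1 is a transporter of thyroid hormone and organic anions. Hairpin TRCN0000079912 made up 0.432, 0.433 and 0.507% at day 0, 0.0639, 0.0948 and 0.0883% in culture 9/10, 0.0614, 0.109 and 0.409% in culture 10/11 and 0.0362 and 0.0236% in the lungs. The lungs were lowest, at -3.96 ± 0.26 (limma adjusted p = 0.000276), and culture 9/10 changed by -2.49 ± 0.29 (adjusted p = 9.78e-05). In culture 10/11 library C stood near day 0 and the change of -1.71 ± 0.61 (adjusted p = 0.0322) lost its call without day 0 A (0.0909), day 0 C (0.0711), culture 10/11 A (-1.11, 0.0842) or culture 10/11 B (0.115), and under TMM (0.127). Hairpin TRCN0000079910 read 0.275, 0.358 and 0.402% at day 0, 0.140, 0.119 and 0.133% in culture 9/10 and 0.0871 and 0.0913% in the lungs, and was lower in both (-1.39 ± 0.29 and -1.93 ± 0.23). In culture 10/11 it read 0.187, 0.195 and 0.189% (-0.84 ± 0.33, limma adjusted p = 0.0463), a call lost without day 0 B (0.164), day 0 C (0.169) or culture 10/11 B (0.0719), and under TMM (0.514). Hairpin TRCN0000079911 was higher in culture 10/11, at 3.52, 4.57 and 3.74% against 1.66, 2.05 and 2.46% (0.95 ± 0.16, limma adjusted p = 0.000486). Under TMM it was called higher in culture 9/10 (1.13, 0.00139) and in the lungs (0.93, 0.0158) too, and without day 0 C also in culture 9/10 (0.61, 0.0381). The Slco1c1 hairpin of pool 9 was lower in culture 9/10 (-1.74 ± 0.19) and in the lungs (-2.82 ± 0.45).

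Negr1 is a glycolipid-anchored adhesion protein of neurons, and its 4 hairpins, all in pool 10, went both ways. Hairpin TRCN0000113667 made up 3.07, 3.26 and 3.28% at day 0, 6.11, 5.29 and 6.01% in culture 9/10, 9.41, 8.57 and 8.48% in culture 10/11 and 5.13 and 4.87% in the lungs. Every later library was above day 0, by 0.86 ± 0.18, 1.46 ± 0.08 and 0.64 ± 0.09 (limma adjusted p = 0.00273, 5.34e-08 and 0.00369). Hairpin TRCN0000113666 read 8.27 and 8.21% in the lungs against 4.91, 4.88 and 4.91% at day 0 (0.75 ± 0.07, limma adjusted p = 0.000841). In culture 10/11 it changed by 0.22 ± 0.08, a call lost without any 1 of the day 0 libraries (0.0529, 0.106 and 0.0838) or culture 10/11 C (0.0951). Under TMM it was called higher in culture 9/10 (0.76, 0.0121). Hairpin TRCN0000113665 made up 2.33, 1.91 and 1.85% at day 0, 0.505, 0.588 and 0.335% in culture 9/10, 0.584, 0.238 and 0.434% in culture 10/11 and 0.433 and 0.723% in the lungs. It was lower in all 3 arms, with changes of -2.12 ± 0.26, -2.36 ± 0.28 and -1.85 ± 0.27 (limma adjusted p = 0.000115, 3.84e-05 and 0.00393). Hairpin TRCN0000113668 fell in the cultures, to 0.199, 0.304 and 0.161% and 0.233, 0.238 and 0.199% from 0.519, 0.650 and 0.810% (-1.60 ± 0.34 and -1.54 ± 0.27), and read 0.681 and 0.744% in the lungs, within the day 0 range but called higher under TMM (0.73, 0.047).

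Gpr133, now named Adgrd1, is an adhesion G protein-coupled receptor. Hairpin TRCN0000176397 made up 3.04, 2.89 and 2.70% at day 0, 8.53, 5.74 and 9.09% in culture 9/10, 7.00, 8.68 and 6.79% in culture 10/11 and 2.63 and 7.27% in the lungs. All 6 cultures were above day 0, by 1.41 ± 0.22 and 1.37 ± 0.11 (limma adjusted p = 0.000517 and 1.39e-06), and the lungs lay on either side of it. Without lungs A it was called higher in the lungs (1.34, 0.00054). Hairpin TRCN0000175083 fell to 2.16, 3.35 and 2.38%, 3.22, 2.68 and 3.13% and, in the lungs, 3.22 and 2.48%. Its changes of -1.07 ± 0.22, -0.85 ± 0.10 and -0.94 ± 0.13 (limma adjusted p = 0.00263, 2.93e-05 and 0.00303) were all lost under TMM (0.158, 0.0994 and 0.0799). Hairpin TRCN0000173995 was lower in culture 9/10 (-1.28 ± 0.27) and in the lungs (-1.12 ± 0.23), both lost under TMM (0.0838 and 0.109), and the lung call was also lost without day 0 B (0.0635). It was called lower in culture 10/11 without library C (-0.55, 0.00244) or day 0 A (-0.53, 0.0492). The Gpr133 hairpin of pool 11 was lower in culture (-1.04 ± 0.22) and had no call in the lungs (0.06 ± 0.29).

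Fermt1 is kindlin-1, which activates integrins in epithelial cells. Hairpin TRCN0000173840 made up 1.55, 1.58 and 1.52% at day 0, 2.03, 2.63 and 3.12% in culture 9/10, 5.64, 4.85 and 4.55% in culture 10/11 and 1.63 and 1.31% in the lungs. The cultures were above day 0, by 0.72 ± 0.20 and 1.68 ± 0.12 (limma adjusted p = 0.0115 and 6.08e-07), and the lungs lay on either side of day 0 but were called higher under TMM (0.51, 0.0374). The rare hairpin TRCN0000173772 was called lower in the lungs (-1.26 ± 0.37, limma adjusted p = 0.0395), a call lost without any 1 of the day 0 libraries (0.0646, 0.119 and 0.121), without lungs A (-0.89, 0.0683) and under TMM (0.206). In culture 10/11 it was called higher under TMM (1.32, 0.0191), and in culture 9/10 lower without library C (-0.78, 0.0355). Both Fermt1 hairpins of pool 11 were lower in culture (-1.74 ± 0.16 and -1.78 ± 0.22), and TRCN0000193238 also in the lungs (-1.76 ± 0.28), while TRCN0000193239 had no call there (0.07 ± 0.50).

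Celsr2 is an atypical cadherin of planar cell polarity with 4 hairpins, all in pool 10. Hairpin TRCN0000094560 made up 0.636, 0.657 and 0.671% at day 0, 0.0414, 0.120 and 0.212% in culture 9/10, 0.0938, 0.144 and 0.189% in culture 10/11 and 0.259 and 0.259% in the lungs. It was lower in each arm, with changes of -2.68 ± 0.55, -2.26 ± 0.34 and -1.34 ± 0.15 (limma adjusted p = 0.00252, 0.000189 and 0.00142). The abundant hairpin TRCN0000094561 read 3.40, 11.1 and 4.21% in culture 9/10, where library B was the only one of the 11 in which Mrps7 TRCN0000104172 did not lead. It had no call, but TMM called it higher in culture 10/11 (0.62, 0.00578) and in the lungs (0.78, 0.00158). Hairpin TRCN0000094563 was lower in each arm (-0.79 ± 0.20, -0.42 ± 0.13 and -0.86 ± 0.16). None of these 3 calls held under TMM, where the change in culture 10/11 turned to 0.18, and that call was also lost without day 0 B (0.0786) or C (0.0872). The rare hairpin TRCN0000094562 was called lower in culture 9/10 (-2.35 ± 0.44, limma adjusted p = 0.00162), and also in culture 10/11 without library A (-1.29, 0.0437) and in the lungs without lungs A (-2.82, 0.00533).

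Gosr2 is a SNARE protein of transport through the Golgi apparatus, with 3 hairpins, all in pool 10. Hairpin TRCN0000115092 made up 0.602, 0.741 and 0.744% at day 0, 6.56, 8.18 and 4.76% in culture 9/10, 5.49, 4.21 and 4.56% in culture 10/11 and 0.0540 and 0.0308% in the lungs. All 6 cultures were above day 0 and both lungs were below it. The changes were 3.20 ± 0.23 in culture 9/10 (limma adjusted p = 3.88e-06), 2.77 ± 0.15 in culture 10/11 (adjusted p = 5.79e-08) and -4.08 ± 0.29 in the lungs (adjusted p = 0.000352). Each held under TMM and with every library left out. The other two Gosr2 hairpins did not share this pattern. Hairpin TRCN0000115093 was called lower in the lungs, at 0.178 and 0.271% against 0.451, 0.486 and 0.543% at day 0 (-1.16 ± 0.24, limma adjusted p = 0.0123), a call lost without day 0 B (0.0588) and under TMM (0.124). It was called lower in culture 9/10 without library C (-0.96, 0.00518) and in culture 10/11 without A (-0.81, 0.0148) or C (-0.63, 0.0429). Hairpin TRCN0000115095 was called lower in culture 10/11 (-0.45 ± 0.15, limma adjusted p = 0.0206). That change turned to 0.15 under TMM, and the call was lost without any 1 of the day 0 libraries (0.0543, 0.0636 and 0.0515) or culture 10/11 C (0.0574). Without lungs A it was called lower in the lungs (-1.33, 0.00039).

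Fmn2 is a formin that builds unbranched actin filaments, and its pair of hairpins moved apart in culture. Hairpin TRCN0000120513 made up 3.82, 4.03 and 3.77% at day 0, 7.16, 10.3 and 7.85% in culture 9/10, 6.77, 6.42 and 8.55% in culture 10/11 and 3.28 and 1.85% in the lungs. The cultures were above and the lungs below every day 0 library, and the calls were higher in culture (1.10 ± 0.18 and 0.89 ± 0.11, limma adjusted p = 0.000604 and 3.81e-05) while the lungs gave no call (-0.65 ± 0.25, adjusted p = 0.0844). It was called lower in the lungs without lungs A (-1.07, 0.000525) and without lungs B (-0.24, 0.0332). Hairpin TRCN0000120512 made up 2.30, 2.38 and 2.38% at day 0, 0.943, 1.17 and 0.758% in culture 9/10, 1.26, 0.964 and 1.14% in culture 10/11 and 1.72 and 2.18% in the lungs. It was lower in culture (-1.32 ± 0.21 and -1.08 ± 0.13, limma adjusted p = 0.000532 and 4.38e-05) and had no call in the lungs (-0.28 ± 0.15), where it was called lower without lungs B (-0.45, 0.00811). Pool 18 held another pair of Fmn2 hairpins that also went apart in culture, at 1.08 ± 0.24 and -3.66 ± 0.39, with no call in the lungs (0.05 ± 0.49 and 0.69 ± 0.37).

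Krtap5-4 belongs to the keratin-associated proteins of the hair shaft. Hairpin TRCN0000098414 made up 0.0261, 0.0357 and 0.0358% at day 0, 0.00104, 0.00241 and 0.0113% in culture 9/10, 0.0178, 0.0187 and 0.00211% in culture 10/11 and 0.00426 and 0.00618% in the lungs, and TRCN0000098413 made up 0.00915, 0.0141 and 0.0115% at day 0, 0.00202, 0.00266 and 0.00610% in culture 9/10, 0.00891, 0.0102 and 0.0193% in culture 10/11 and 0.000528 and 0.00129% in the lungs. Both were lower in culture 9/10 (-3.34 ± 0.77 and -1.80 ± 0.51, limma adjusted p = 0.00481 and 0.0133) and in the lungs (-2.63 ± 0.40 and -3.62 ± 0.56, adjusted p = 0.00453 and 0.00481). The culture 9/10 call of TRCN0000098413 was lost without day 0 B (0.0601), without culture 9/10 B (0.0594) and under TMM (0.0549). Neither was called in culture 10/11, where TRCN0000098414 changed by -1.84 ± 0.81 and was called lower without library A (-2.33, 0.0378) or C (-0.82, 0.0147). In pool 18, Krtap5-4 TRCN0000440439 was lower in the lungs (-1.44 ± 0.37). The other Krtap5-4 hairpin of that pool, TRCN0000436596, changed by -3.04 ± 1.28 in the lungs and had no call, and neither was called in culture.

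Seen by gene, 3 of the 18 genes with at least 2 hairpins in the pool (16.7%) had all of them called in 1 direction in each arm. The other pools were counted in their own libraries, with no lung library left out. A gene was counted there once for each pool that held at least 2 of its hairpins. The share with all hairpins called in 1 direction was 20.9% of 302 such cases beside culture 9/10 and 20.5% of 302 beside culture 10/11. Beside the lungs it was 4.21% of 285, and these differences were not tested. The pool 10 genes were Arntl2, Krtap5-4 and Nalcn in culture 9/10, Arntl2, Nalcn and Zscan20 in culture 10/11, and Arntl2, Krtap5-4 and Whsc2 in the lungs, all lower. Under TMM the genes with all hairpins lower were Arntl2 in culture 9/10, Nalcn in culture 10/11 and Krtap5-4 in the lungs, and those with all hairpins higher were Mrps7 and Sfn in the lungs and, among others, Fermt1 in culture 10/11. Hairpins of 1 gene were called in opposite directions for Fmn2, Gpr133 and Negr1 in culture 9/10, for 8 genes in culture 10/11 and for Nalcn, Negr1 and Rbms1 in the lungs, which is 16.7, 44.4 and 16.7% of the 18, against 24.5, 24.2 and 13.3% in the other pools. Under TMM opposite calls were made for 5 genes in culture 9/10, 6 in culture 10/11 and 5 in the lungs. Celsr2 TRCN0000094561 and Wdr3 TRCN0000104039 were among the 3 hairpins without a call against day 0 on shares of the pool, and TMM called both higher in culture 10/11. Wdr3 TRCN0000104039 was called lower without culture 9/10 C (-0.77, 0.00947), without culture 10/11 B (-0.20, 0.0233) and without lungs A (-0.24, 0.0165) or B (-1.05, 0.000279), and Celsr2 TRCN0000094561 was called higher without lungs B (0.22, 0.0203). Hairpins without a call had changes between -0.64 and 0.47 in culture 9/10, between -1.84 and 0.73 in culture 10/11 and between -3.75 and 0.61 in the lungs.

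The third comparison set the mixtures against each other, to ask whether the companion pool went with a different result for the same hairpins. Of the 51 hairpins 3 were called, all with the larger share in culture 10/11, among them a Fermt1 and a Negr1 hairpin, and 48 were not called. Over the 103 hairpins of pools 9 and 10, both sampled in 2 mixtures, the background was 15.5% in either direction, 4.85% higher and 10.7% lower. For pool 9 this set culture 9/10 against the cultures of pools 8 and 9, so its directions belong to another contrast. The 51 pool 10 hairpins are part of the 103. Fermt1 TRCN0000173840 had shares of 5.64, 4.85 and 4.55% in culture 10/11 and 2.03, 2.63 and 3.12% in culture 9/10, a difference of 0.97 ± 0.24 (limma adjusted p = 0.0198). Negr1 TRCN0000113667 had 9.41, 8.57 and 8.48% against 6.11, 5.29 and 6.01%, a difference of 0.60 ± 0.15 (limma adjusted p = 0.0198). The arms of both hairpins did not overlap. Both lost their call without culture 10/11 A (0.0962 and 0.114) or B (0.0759 and 0.0554), and Fermt1 also without C (0.059). Under TMM none of the 3 was called (0.0893 for Fermt1 and 0.309 for Negr1), and 3 others were called, all lower. No hairpin was called without culture 10/11 A, 1 was called without B and 2 without C of that mixture, and 5 were called without each of culture 9/10 A, B and C. The mixtures were sequenced in different lanes, so mixture and lane cannot be told apart.

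The fourth comparison set the lungs against culture 9/10, sequenced in the same lane, to ask which hairpins fared differently in mice than in dishes. Gosr2 TRCN0000115092, Arntl2 TRCN0000095703, Fmn2 TRCN0000120513 and a pair of Whsc2 hairpins had smaller shares in the lungs, and hairpins against Nalcn, Rbms1, Negr1, Sfn, Dusp5 and Fmn2 larger ones. Of the 51 hairpins 12 were called, 7 higher and 5 lower. Over 889 hairpins of the 17 pools tested the background was 27.1% in either direction, 12.8% higher and 14.3% lower. The other pools were again tested in their own libraries, with no lung library left out. The median difference was 0.11 in pool 10 and -0.18 over the pools tested.

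The difference for Gosr2 TRCN0000115092 was -7.28 ± 0.39 (limma adjusted p = 4.63e-06), from 6.56, 8.18 and 4.76% in culture to 0.0540 and 0.0308% in the lungs. Nalcn TRCN0000173700 differed by 2.56 ± 0.39 (adjusted p = 0.00171), Sfn TRCN0000112151 by 1.56 ± 0.28 (adjusted p = 0.00462) and Whsc2 TRCN0000124875 by -1.94 ± 0.42 (adjusted p = 0.0105) in the same limma fit. These 4 were called with each library left out in turn and under TMM. The other calls were each lost without at least 1 library. Whsc2 TRCN0000124876 (-1.83 ± 0.41) and Fmn2 TRCN0000120513 (-1.76 ± 0.38) lost theirs only without culture 9/10 B (0.0871 and 0.0567). Rbms1 TRCN0000096783 (1.82 ± 0.45) lost its call without culture 9/10 B (0.0603), lungs A (0.0947) or lungs B (0.0804). Negr1 TRCN0000113668 (1.74 ± 0.48) lost its call without culture 9/10 A (0.0663), lungs A (0.122) or lungs B (0.14). Arntl2 TRCN0000095703 (-3.82 ± 1.11) lost its call without culture 9/10 B (0.135) or C (0.0889) or lungs B (-2.61, 0.163). Rbms1 TRCN0000096780 (1.16 ± 0.34) and Dusp5 TRCN0000080891 (1.22 ± 0.38) kept their call in 1 of the 5 fits that left out a library, with adjusted p of at most 0.129 and 0.21 in the others, and the Dusp5 call was also lost under TMM (0.0527). Fmn2 TRCN0000120512 (1.04 ± 0.32) kept it in none, with adjusted p between 0.0531 and 0.17, nor under TMM (0.0671). Without culture 9/10 B Whsc2 TRCN0000124874 was called higher (3.67, 0.0425), and without lungs B Gpr133 TRCN0000176397 was called lower (-1.54, 0.0399). In all, 6 hairpins were called without culture 9/10 B, and 7 without either lung library. With culture 10/11 in place of culture 9/10, 20 hairpins were called, 11 higher and 9 lower. With lung library C added, 1 was called.

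The 8 control hairpins, which every pool shared, give the behaviour of hairpins outside the pool. They amounted to 43.8, 44.2 and 43.1 reads per 100 pool 10 reads at day 0 and to 37.4 and 38.4 in the lungs. In the lungs the hairpin against Cdkn1b, an inhibitor of cyclin-dependent kinases, averaged 14.6 reads per 100 pool 10 reads against 6.41 at day 0. Non-targeting-shRNA-1 averaged 14.9 against 12.8 and overlapped with day 0, whereas Non-targeting-shRNA-2 averaged 0.748 against 3.14 with no overlap. The hairpin against GFP averaged 0.866 against 2.11. Cultures hold the controls of both paired pools, so their controls were not set against pool 10. On the log2 scale these lung differences were 1.18 for Cdkn1b, 0.22 and -2.07 for the non-targeting hairpins and -1.28 for GFP, and they were not tested.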

How the data were processed

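Genomic DNA of PDA530 Met cells and lung tumours was amplified by a two-step PCR and sequenced, per the labels' protocols. Per the submitters' processing notes BWA 0.5.9 was used, while how reads were counted and scaled is not given in the sources used here. The deposited tables hold 1 normalised signal value per hairpin, made by the authors. Each signal value was divided by the smallest of its library, taken as 1 read, and 27241 of 27241 values came out whole within 0.01 reads (100%). A hairpin with no row in a library was given 0 reads.

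Reads of each pool were scaled to CPM within that pool's targeting reads, and log2(CPM + 1) was fitted with limma 3.58.1 (R 4.3.3), with a variance trend and robust estimation, per pool and with the compared arms only. The deposited unit was a signal and not a count, so limma was used. Hairpins with a mean under 10 reads in a fit were left out. The Benjamini-Hochberg adjustment ran over every pool tested in a comparison, with a threshold of 0.05. These were 18 pools for each culture against day 0, 17 for both lung comparisons and 2 between the mixtures. A background over all pools means over these. edgeR 4.0.16 gave TMM factors and, on the recovered reads, a quasi-likelihood test called 34, 36, 29, 3 and 9 pool 10 hairpins in the 5 comparisons. DESeq2 1.42.0 was another alternative. The effective number was tested by exact permutation of libraries. The steps were tested on simulated data.

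Groups come from sample titles and lanes from the names of the deposited files. Replicate letters were checked for pairing: deviations of same-letter cultures of the mixtures correlated at 0.09, 0.17 and -0.25, so letters were not taken as pairs. Every hairpin was counted. Values in each library are given for the most abundant, for the largest changes of each comparison and direction that were called without overlap, and for genes whose hairpins were all called 1 way or in opposite ways. Genes called in no such way are given too, beyond that rule. The members, lists and groupings were chosen with earlier results of these data known. Gene symbols follow the files and were matched to RefSeq (GRCm38.p6). Some control hairpins, and the single values of 1 targeted gene that enters the counts, are not reported here. Hairpin sequences were not used here. No library of pool 10 lacked values.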

Additional observations from a re-analysis of the deposited data

Results flagged for a closer look

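The test of the difference between mixtures found larger shares in culture 10/11 than in culture 9/10, on the log2 scale, for Fermt1 TRCN0000173840 by 0.97 and Negr1 TRCN0000113667 by 0.60. Neither was called under TMM (limma adjusted p = 0.0893 and 0.309), and neither kept its call with every library left out in turn. Lane and mixture cannot be told apart in this test.

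The test of the lungs against culture 9/10 called 12 of the 51 hairpins, beside a background of 27.1% over all pools, and 4 of the 12 kept their call with every library left out in turn. Values are differences on the log2 scale. Those with the larger share in the lungs were Nalcn TRCN0000173700 (2.56), Rbms1 TRCN0000096783 (1.82), Negr1 TRCN0000113668 (1.74), Sfn TRCN0000112151 (1.56), Dusp5 TRCN0000080891 (1.22), Rbms1 TRCN0000096780 (1.16) and Fmn2 TRCN0000120512 (1.04). Those with the smaller share were Fmn2 TRCN0000120513 (-1.76), Whsc2 TRCN0000124876 (-1.83), Whsc2 TRCN0000124875 (-1.94), Arntl2 TRCN0000095703 (-3.82) and Gosr2 TRCN0000115092 (-7.28).

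Pool 10 hairpins also appeared in libraries of other pools. Over 130 libraries not named for pool 10 their median share of reads was 0.00298%, and the highest day 0 library, day 0 B of pool 11, held 0.167%. Above that level were 7 libraries. The lung library of pool 16 labelled D held 71.0% pool 10 reads, culture A of pools 16 and 17 held 14.9%, lung A of pool 17 held 14.5% and culture E of pool 16 held 2.10%. Lung B of pool 17 held 0.733%, lung A of pool 11 held 0.253% and lung C of pool 11 held 0.168%. None of them was used for pool 10 here, and their labels name no pool 10.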

How the results depend on the processing

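Called hairpins numbered 30 to 39 in culture 9/10, 30 to 38 in culture 10/11, 23 to 42 in the lungs, 0 to 5 between the mixtures and 6 to 10 for the lungs against culture 9/10 with each library left out. With the replicate letter as a block (replicate block) the counts were 34, 36, 21, 3 and 2. The letters do not pair the samples. With lung library C they were 7 in the lungs and 1 against culture 9/10, and 20 with culture 10/11 in its place. Between the mixtures 20 were called on deposited values and 7 with DESeq2. DESeq2 split its calls 14 higher and 14 lower in culture 9/10, 18 and 18 in culture 10/11, and 18 and 15 in the lungs, and its size factors in limma split them 12 and 13, 17 and 17, and 17 and 14. Deposited values called 10 higher and 1 lower for the lungs against culture 9/10. The log2 difference in effective number between the lungs and culture 9/10 went from -0.025 to 0.065 with a library left out.

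Over 1315 alternatives of 87 named hairpin results these changes turned their sign. In culture 10/11 Mrps7 TRCN0000104170, Sfn TRCN0000112151 and Gosr2 TRCN0000115095 were at 0.16, 0.11 and 0.15 under TMM, at 0.14, 0.092 and 0.13 with DESeq2 size factors and at 0.14, 0.094 and 0.16 in DESeq2. On deposited values there, Slco1c1 TRCN0000079911 was at -0.68, Rbms1 TRCN0000096780 at -1.24, Mrps7 TRCN0000104172 at -1.02, Sfn TRCN0000112150 at -0.72, Negr1 TRCN0000113666 at -1.41, Negr1 TRCN0000113667 at -0.17, Fmn2 TRCN0000120513 at -0.74 and Gpr133 TRCN0000176397 at -0.26. In culture 9/10 Mrps7 TRCN0000104172 was at -0.24, and between the mixtures Fermt1 TRCN0000173840 at -0.032 and Negr1 TRCN0000113667 at -0.40. With lung library C, Rbms1 TRCN0000096780 was at -0.039, Dusp5 TRCN0000080891 at -0.29, Sfn TRCN0000112151 at -0.050, Negr1 TRCN0000113666 at -0.46, Negr1 TRCN0000113667 at -0.50, Mrps7 TRCN0000104172 at -0.77 and Nalcn TRCN0000173700 at -0.88 in the lungs, and Negr1 TRCN0000113668 at -2.53 and Fmn2 TRCN0000120512 at -0.18 against culture 9/10. That library holds almost no pool 10 reads. A change of scaling moves the hairpins of pool 10 nearly equally, by the median shifts given above for TMM and the deposited values in the cultures. The cause of the other changes was not tested beyond this. A pseudocount of 10, no filter and edgeR turned none of the 87. At 3 and 40 reads, the lung change of Arntl2 TRCN0000095703 is limited by depth.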

Other observations

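The pool 10 reads in the lung library of pool 16 labelled D had nearly the hairpin profile of those in culture A of pools 16 and 17, with a Pearson r of 0.990 across hairpins. Mrps7 TRCN0000104172 led the lung library with 24.8% of the pool 10 reads, more than in any library named for pool 10, and also led culture A of pools 16 and 17 with 21.6% and lung A of pool 17 with 16.7%. Rbms1 TRCN0000096781 had 9.96% and Nalcn TRCN0000173700 8.13% in the pool 16 lung library, and Gosr2 TRCN0000115092 had 0.00361%. Across hairpins the log2 values of the pool 16 lung library correlated at 0.902 with both pool 10 lungs, at 0.871 to 0.874 with day 0 and at 0.811 to 0.852 with the pool 10 cultures. Culture A of pools 16 and 17 correlated at 0.914 to 0.918 with the pool 10 lungs and at 0.874 to 0.882 with day 0. Lung A of pool 17 correlated at 0.790 to 0.855 with the pool 10 lungs and at 0.856 to 0.861 with day 0. Nalcn TRCN0000173700 had 15.5% in lung A of pool 17, while Gosr2 TRCN0000115092 had 0.528% there.

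Lung library C of pool 10, not used above, held few pool 10 reads. Fmn2 TRCN0000120513 had 24.0% of them, Wdr3 TRCN0000104035 19.0%, Gosr2 TRCN0000115092 18.1% and Whsc2 TRCN0000124876 12.2%.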
